A study of Mus musculus with 6 samples.

Results

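The genes of heat production that bypasses UCP1 were followed in the inguinal subcutaneous white adipose tissue (SC-WAT) of mice lacking Egr1. They are 10 of the 47069 genes counted, chosen by name: Gatm, Gamt, Slc6a8, Ckb, Ckmt1, Ckmt2 and Alpl of the creatine cycle, Atp2a2 and Ryr2 of calcium cycling, and Pm20d1, which makes N-acyl amino acids. All 10 had enough counts to be tested, as did 17667 genes in all. RNA-seq libraries came from the fat pads of 2-week-old female C57BL/6 mice (a line kept on C57BL/6 J) that received no treatment, 3 Egr1+/+ and 3 Egr1-/-, with 1 library per mouse. The Egr1-/- mice carry a germline allele in which LacZ was placed in the 5′ untranslated region of Egr1 and the reading frame was shifted ahead of the DNA-binding domain, so that the gene is inactivated in every cell type while some transcript can remain. Both genotypes were born to heterozygous parents, and 1 mouse of each genotype shared a litter, so the mice are separate animals that are not all unrelated.

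Brown and beige adipocytes are known for burning fuel through UCP1, which lets protons leak back into the mitochondrial matrix. Other cycles can also turn ATP or the proton gradient into heat. In the creatine cycle, creatine is phosphorylated by creatine kinase and phosphocreatine is split again without doing work. In calcium cycling, the SERCA pump of the endoplasmic reticulum spends ATP on calcium that leaks back through ryanodine or IP3 receptors. N-acyl amino acids, made outside the cell by PM20D1, can uncouple mitochondria directly.

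Egr1 itself was measured at 10.3, 8.02 and 16.5 CPM in the Egr1+/+ mice and at 3.09, 2.71 and 1.84 CPM in the Egr1-/- mice, where CPM are counts per 1000000 counts of a library scaled by TMM. The genotypes did not overlap, and the log2 fold change was -2.19 (SE 0.30, edgeR Benjamini-Hochberg adjusted p = 0.0879, DESeq2 adjusted p = 3.585e-10). Total counts ranged from 29661984 to 42357981 per mouse, and 50.0% to 66.3% of them fell on mitochondrially encoded genes. The adipocyte markers were abundant in every mouse, with a summed level of 5291 to 7682 CPM over 7 genes. The most abundant of them was Fabp4, at a mean of 3928 CPM in Egr1+/+ mice and 3430 CPM in Egr1-/- mice. Skeletal muscle markers differed widely within both genotypes: 16 genes summed to 1241, 3758 and 253 CPM in Egr1+/+ mice and to 133, 413 and 2916 CPM in Egr1-/- mice. Of these 16 genes, 4 had a positive and 12 a negative log2 fold change, and all overlapped between genotypes. In whole fat pads, fewer cells of a type and less RNA per cell cannot be told apart.

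None of the 10 genes passed an adjusted p of 0.05 in edgeR, the threshold that 0.017% of the tested genes passed. At an unadjusted p of 0.05, 4 of the 10 passed, against 10.7% of all tested genes: Pm20d1 and Atp2a2 were higher in Egr1-/- mice, and Gatm and Ckb were lower. DESeq2 called 2 of the 10, Pm20d1 higher and Gatm lower, where it called 2.89% of the 12871 genes it gave an adjusted p. All 3 Egr1-/- mice lay above all 3 Egr1+/+ mice for Pm20d1 and Atp2a2, a pattern held by 8.15% of tested genes. All 3 lay below for Gatm, Gamt and Ckb, as for 8.1% of tested genes, though for Gamt the margin was very small. The median log2 fold change of the 10 genes was -0.09, with 4 positive and 6 negative, beside a median of 0.0011 and 8858 positive values over all tested genes.

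**Figure D1:**
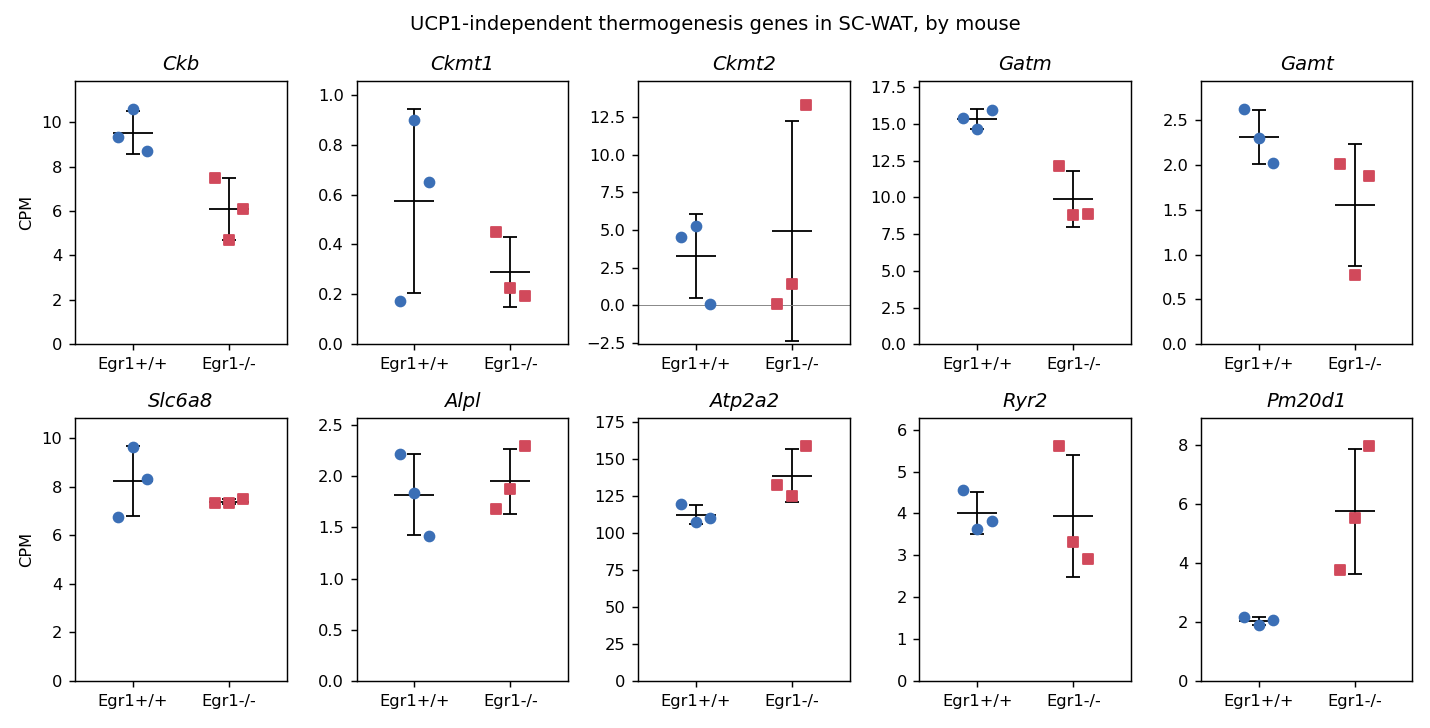
Level of each of the 10 genes in CPM (vertical axes start at or below 0 and differ between panels) in 3 Egr1+/+ mice (circles) and 3 Egr1-/- mice (squares), with the mean and SD as lines. The genotypes do not overlap for Ckb, Gatm, Gamt, Atp2a2 and Pm20d1, though for Gamt they almost touch. Ckmt2 spreads from 0.0600 to 13.3 CPM within the Egr1-/- mice.

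For the genes of both steps of creatine synthesis the Egr1-/- mice all lay below the Egr1+/+ mice, though for Gamt by a very small margin. Gatm encodes the mitochondrial enzyme that makes guanidinoacetate from arginine and glycine (chromosome 2, 122594467 to 122611303, GRCm38, minus strand). Its level was 15.4, 14.6 and 15.98 CPM in Egr1+/+ mice against 12.1, 8.78 and 8.86 CPM in Egr1-/- mice. All 3 Egr1-/- mice were below the lowest Egr1+/+ mouse, and the log2 fold change was -0.63 (SE 0.15, edgeR adjusted p = 0.224), which passed in DESeq2 (adjusted p = 0.0285). Gamt, the methyltransferase that turns guanidinoacetate into creatine (chromosome 10, 80258151 to 80261012, minus strand), was at 2.62, 2.30 and 2.02 CPM in Egr1+/+ mice and at 2.01, 0.775 and 1.88 CPM in Egr1-/- mice. The groups almost touched: the lowest Egr1+/+ value was 2.018 CPM from 87 counts, and the highest Egr1-/- value was 2.011 CPM from 67 counts. The log2 fold change was -0.57 (SE 0.35, edgeR adjusted p = 0.625, DESeq2 adjusted p = 0.598), and it was -0.24 without Egr1-/- replicate 2, the lowest mouse (edgeR adjusted p = 0.864).

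The adipocyte markers were also lower: 6 of 7 had a negative log2 fold change, 3 of them with no overlap, as for 8.1% of tested genes. The sum of the 7 markers was 6154, 5291 and 6018 CPM in Egr1-/- mice against 6802, 7682 and 6866 CPM in Egr1+/+ mice. Per 1000 CPM of that sum, Gatm was at 2.26, 1.91 and 2.33 in Egr1+/+ mice and at 1.97, 1.66 and 1.47 in Egr1-/- mice, so that the genotypes overlapped (exact two-sided permutation p = 0.2, n = 3 per genotype). Gamt overlapped on this scale as well (exact permutation p = 0.6). The part of adipocyte content in the lower levels was not tested.

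The promoters of the genes whose Egr1-/- mice were all lower are shown because EGR1 is a zinc finger protein that binds a GC-rich site. The RefSeq window of a gene runs from 250 bases before to 50 after its start site, and both parts were searched. The 250 bases before the start site are printed, come from RefSeq (GRCm38.p6), are written 5′ to 3′ on the gene's strand, and carry in capitals any match to GCGNGGGCG on either strand. They lie at chr10:80261013-80261262 for Gamt, chr2:122611278-122611527 for Gatm and chr12:111672339-111672588 for Ckb, all on the minus strand.
Gamt: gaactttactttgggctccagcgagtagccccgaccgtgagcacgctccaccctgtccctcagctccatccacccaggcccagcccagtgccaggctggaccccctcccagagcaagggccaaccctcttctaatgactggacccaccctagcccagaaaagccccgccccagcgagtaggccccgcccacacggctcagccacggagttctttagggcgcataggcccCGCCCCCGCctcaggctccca
Gatm: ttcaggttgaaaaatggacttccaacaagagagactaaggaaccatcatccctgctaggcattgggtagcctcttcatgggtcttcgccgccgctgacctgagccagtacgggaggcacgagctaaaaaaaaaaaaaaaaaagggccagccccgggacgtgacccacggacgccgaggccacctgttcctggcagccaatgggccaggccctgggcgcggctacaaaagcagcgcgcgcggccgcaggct
Ckb: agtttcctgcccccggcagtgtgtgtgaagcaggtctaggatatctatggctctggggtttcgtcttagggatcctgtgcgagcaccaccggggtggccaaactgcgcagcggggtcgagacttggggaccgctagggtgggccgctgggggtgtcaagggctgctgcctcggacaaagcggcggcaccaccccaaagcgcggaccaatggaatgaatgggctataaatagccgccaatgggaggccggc
A match was found in the window of Gamt, on the strand opposite to the gene, beginning 21 bases before its start site. The RefSeq windows matched to the 10 genes were 9 windows of 7 genes, and the Gamt window was the 1 that held these letters, beside 5.552% of all 32851 such windows of 250 and 50 bases. A match is a run of letters and was not measured as a bound site. Slc6a8, Atp2a2 and Pm20d1 are named without a promoter sequence.

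Slc6a8, the plasma membrane creatine transporter on chromosome X (73673150 to 73682502), overlapped between genotypes. It was at 6.78, 9.65 and 8.33 CPM in Egr1+/+ mice and at 7.32, 7.33 and 7.50 CPM in Egr1-/- mice, and the log2 fold change was -0.16 (SE 0.16, edgeR adjusted p = 0.789). The Egr1-/- mice lay within 0.2 CPM of each other and inside the Egr1+/+ range. Without Egr1+/+ replicate 2 the log2 fold change was -0.034.

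Of the creatine kinases, Ckb, the cytosolic brain-type enzyme (chromosome 12, 111669361 to 111672338, minus strand), was lower in all Egr1-/- mice. The counts were 320, 318 and 375 in Egr1+/+ mice, against 250, 145 and 189 in Egr1-/- mice, or 9.31, 10.6 and 8.70 CPM against 7.50, 4.68 and 6.11 CPM. The means were 9.53 ± 0.963 CPM and 6.10 ± 1.41 CPM (SD, n = 3 each), a 0.640-fold level, and the log2 fold change of -0.64 (SE 0.19) had an edgeR adjusted p of 0.284 and a DESeq2 adjusted p of 0.0855. Per 1000 CPM of the adipocyte sum the genotypes did not overlap, at 1.37, 1.38 and 1.27 against 1.22, 0.885 and 1.02. The exact permutation p was 0.1, the smallest possible. Fabp4 is the largest part of that sum, and the share of all tested genes that separate on this scale was not computed. The pseudogenes Ckb-ps1 and Ckb-ps2 had at most 1 count per mouse.

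Both mitochondrial kinases overlapped between genotypes. Ckmt1, the ubiquitous form (chromosome 2, 121357714 to 121363737), drew few reads, at 6, 27 and 28 counts in Egr1+/+ mice, against 15, 7 and 6 in Egr1-/- mice. Its log2 fold change was -0.96 (SE 0.64, edgeR adjusted p = 0.652) and -0.52 without Egr1+/+ replicate 2. It shares 10 exonic bases with Strc on the opposite strand, which had 0 to 21 counts. Ckmt2, the form of heart and skeletal muscle (chromosome 13, 91853387 to 91876885, minus strand), varied most, with 155, 158 and 3 counts in Egr1+/+ mice, against 2, 44 and 411 in Egr1-/- mice. The lowest and highest mouse were both Egr1-/-, at 0.0600 and 13.3 CPM, and the log2 fold change was 0.60 (SE 1.33, edgeR adjusted p = 0.909).

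Over the 6 mice the log2 CPM of Ckmt2 correlated with the log2 of the muscle sum at Pearson r = 0.929 (exact permutation p = 0.0139, adjusted 0.139 over 10 relations) and Spearman rho = 0.943 (exact permutation p = 0.0167, adjusted 0.167). Without the mice farthest from the median muscle level, Egr1-/- replicate 1 and Egr1+/+ replicate 2, r was 0.940. The other 9 genes had r between -0.596 for Ryr2 and 0.673 for Alpl, with Ckb at 0.248, Gatm at -0.0594, Atp2a2 at 0.101 and Pm20d1 at 0.0192. Without the same mice, r was 0.910 for Alpl, 0.841 for Atp2a2, 0.520 for Pm20d1, -0.753 for Ckmt1, -0.372 for Gatm and -0.034 for Ckb, so that high values over the 4 remaining mice were not particular to Ckmt2. Ckm, the cytosolic kinase of skeletal muscle, was at 108, 338 and 20.3 CPM in Egr1+/+ mice and at 8.67, 24.5 and 239 CPM in Egr1-/- mice. Slow muscle showed in the same mouse that had most Ckmt2: Myh7, its myosin heavy chain, was at 42.7 CPM in Egr1-/- replicate 3 and at 0.348 to 8.09 CPM in the other mice. With the muscle sum as a covariate, the edgeR log2 fold changes were 0.93 for Ckmt2 (adjusted p = 0.680), 1.55 for Pm20d1 (0.103), -0.70 for Gatm (0.173), -0.64 for Ckb (0.345) and 0.33 for Atp2a2 (0.451). Leaving out the library with most muscle RNA of each genotype, a setting chosen after seeing the data, turned the Ckmt2 difference to -1.62, and leaving out Egr1-/- replicate 3 alone turned it to -2.14.

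**Figure D2:**
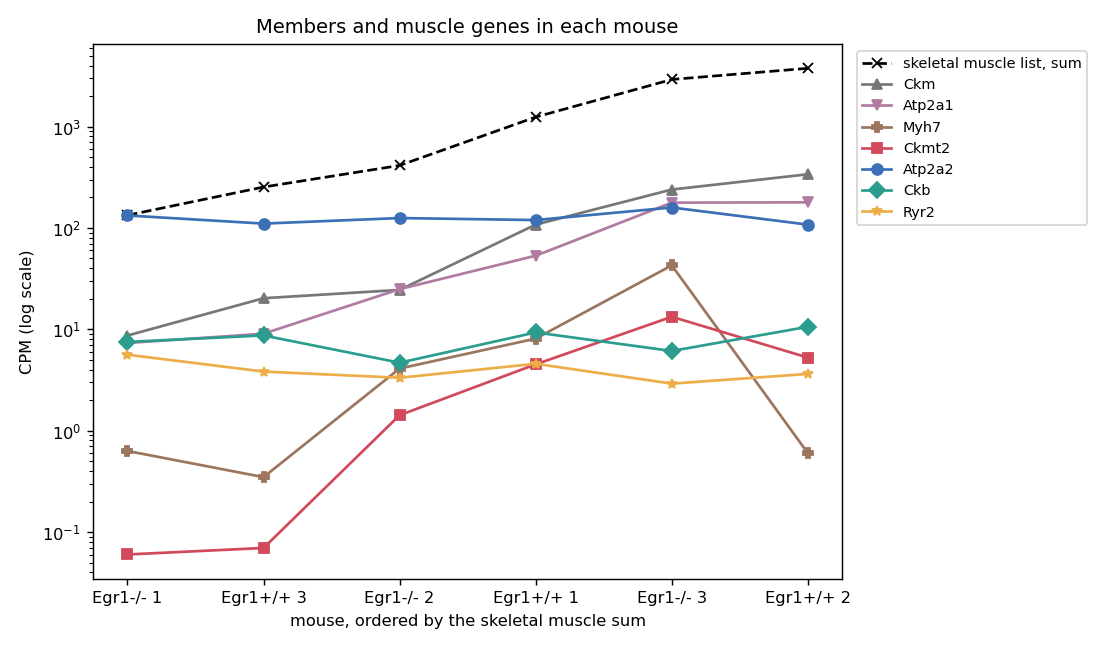
Level in CPM (log axis) of 4 of the 10 genes, 3 muscle genes (Ckm, Atp2a1, Myh7) and the sum of 16 skeletal muscle markers in each mouse, ordered from the lowest muscle sum (133 CPM) to the highest (3758 CPM). Ckmt2 moves with the muscle genes from mouse to mouse. Atp2a2 runs from 108 to 159 CPM, Ckb from 4.68 to 10.6 CPM and Ryr2 from 2.91 to 5.61 CPM.

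Among Ckb, Ckmt1 and Ckmt2, compared per kilobase of exon, Ckb made up 50.9%, 48.4% and 90.7% in Egr1+/+ mice against 92.2%, 60.7% and 19.0% in Egr1-/- mice. The genotypes differed by -6.06 percentage points (exact permutation p = 1, n = 3 each, smallest possible p 0.1). Ckmt2 took 48.0%, 46.8% and 1.41% in Egr1+/+ mice against 1.44%, 35.9% and 80.3% in Egr1-/- mice, and the genotypes overlapped. Ckmt1 took at most 7.86% in any mouse. The spread between mice of 1 genotype was larger than the difference between the genotypes for each of these kinases.

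**Figure D3:**
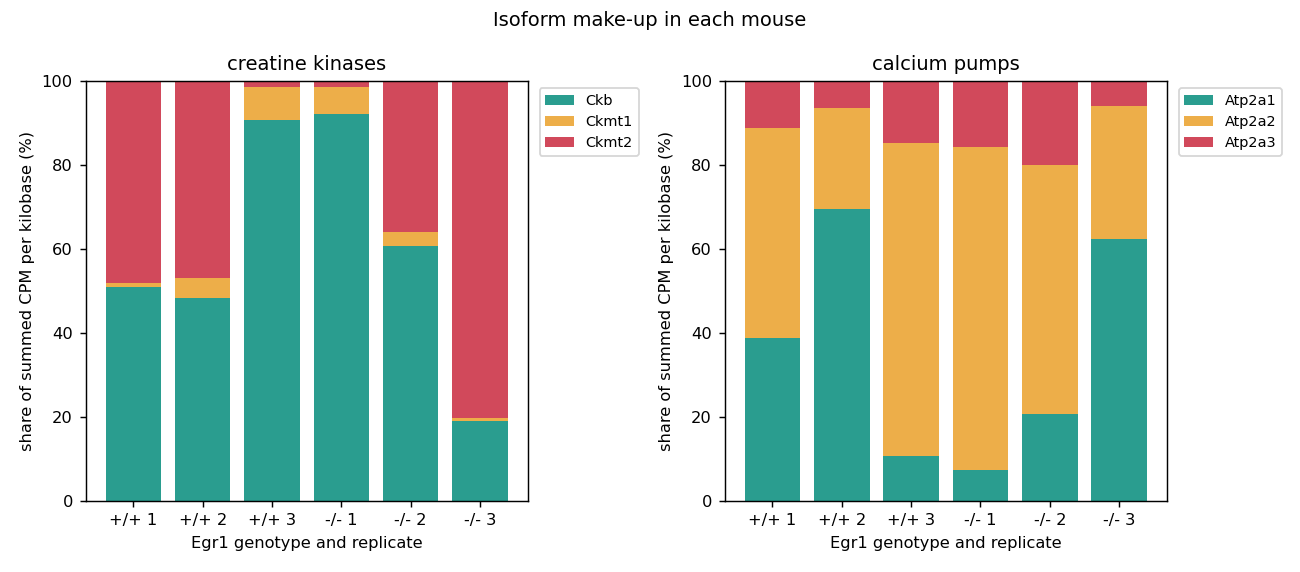
Share (%) of each creatine kinase (left) and each SERCA pump (right) in the sum of its family's CPM per kilobase of exon, 1 bar per mouse. Ckmt2 and Atp2a1 fill large shares in Egr1+/+ replicates 1 and 2 and Egr1-/- replicate 3, the mice with most skeletal muscle RNA.

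Alpl, the tissue-nonspecific alkaline phosphatase that splits phosphocreatine in thermogenic fat (chromosome 4, 137741733 to 137796384, minus strand), overlapped between genotypes. The level was 2.21, 1.83 and 1.42 CPM in Egr1+/+ mice against 1.68, 1.87 and 2.30 CPM in Egr1-/- mice, with 55 to 76 counts per mouse. The log2 fold change was 0.10 (SE 0.27, edgeR adjusted p = 0.925), and its sign turned when Egr1+/+ replicate 3 or Egr1-/- replicate 3 was left out (-0.058 and -0.029). Bone is another source of Alpl. Bglap, the osteocalcin gene, reached at most 0.240 CPM, and bone and cartilage markers summed to 0.255 to 1.05 CPM. The part of bone in the Alpl level was not tested.

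Atp2a2, which encodes the SERCA2 pump (chromosome 5, 122453513 to 122502225, minus strand), was the most abundant of the 10 genes. It was at 119.6, 108 and 110.35 CPM in Egr1+/+ mice and at 133, 125 and 159 CPM in Egr1-/- mice. All Egr1-/- mice were higher, by a 1.23-fold mean, and the log2 fold change of 0.30 (SE 0.13) had an edgeR adjusted p of 0.445 and a DESeq2 adjusted p of 0.311. It was 0.20 without Egr1-/- replicate 3 (edgeR adjusted p = 0.845) and 0.17 without the library of each genotype with most muscle RNA (edgeR adjusted p = 0.769). Fast skeletal muscle uses another pump, Atp2a1, which ranged from 7.32 CPM in Egr1-/- replicate 1 to 179 CPM in Egr1+/+ replicate 2. Without Atp2a1 in the sum, Atp2a2 made up 81.3% ± 2.52 of the pumps per kilobase in Egr1+/+ mice against 80.8% ± 5.24 in Egr1-/- mice (SD, n = 3 each, exact permutation p = 0.9), the rest being Atp2a3. With Atp2a1 included the share of Atp2a2 was 50.0%, 24.0% and 74.6% against 76.9%, 59.4% and 31.9%.

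Per 1000 CPM of the adipocyte sum, which was itself lower in Egr1-/- mice, Atp2a2 was at 17.6, 14.0 and 16.1 in Egr1+/+ mice and at 21.6, 23.7 and 26.4 in Egr1-/- mice. Per 1000 CPM of the brown and beige adipocyte marker sum, which was higher in Egr1-/- mice, Atp2a2 went the other way. It was at 169, 189 and 199 in Egr1+/+ mice and at 97.4, 129 and 98.6 in Egr1-/- mice (exact permutation p = 0.1, n = 3 each). The marker sum, of which Ucp1 is the largest part, did not overlap itself, at 555 to 707 CPM against 968 to 1614 CPM. A gene with an unchanged CPM therefore tends to come out lower on that scale. All Egr1-/- mice were also lower on it for Ckb, Gatm, Gamt, Slc6a8, Alpl and Ryr2, of which Slc6a8, Alpl and Ryr2 overlapped in CPM. Ckmt1, Ckmt2 and Pm20d1 overlapped on it. The share of all tested genes that separate on either scale was not computed. Both scales, the second also used for Pm20d1, were chosen after the marker lists had been seen.

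Ryr2, the ryanodine receptor best known from the heart (chromosome 13, 11553102 to 12106945, minus strand), was at 4.57, 3.63 and 3.83 CPM in Egr1+/+ mice and at 5.61, 3.33 and 2.91 CPM in Egr1-/- mice. The highest and the lowest mouse were both Egr1-/-, and the log2 fold change was -0.02 (SE 0.26, edgeR adjusted p = 0.988). Leaving out Egr1+/+ replicate 1, Egr1-/- replicate 2 or Egr1-/- replicate 3 turned the sign, to between 0.066 and 0.16. Heart markers summed to 1.26 to 2.39 CPM, with Nppa, the atrial natriuretic peptide gene, at 0 counts in every mouse. The part of such cells in the Ryr2 level was not tested. Smooth muscle markers were at 136 to 228 CPM, and 7 of 7 had a negative log2 fold change.

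Pm20d1, the secreted enzyme that joins fatty acids to amino acids (chromosome 1, 131797381 to 131821473), had the largest difference of the 10 genes. Counts were 74, 57 and 89 in Egr1+/+ mice, against 125, 171 and 246 in Egr1-/- mice. Levels were 2.15, 1.90 and 2.06 CPM in Egr1+/+ mice against 3.75, 5.52 and 7.95 CPM in Egr1-/- mice. The means were 2.04 ± 0.130 CPM and 5.74 ± 2.11 CPM (SD, n = 3 each), a 2.82-fold level, and all Egr1-/- mice were higher. The log2 fold change was 1.49 (SE 0.28), with an edgeR adjusted p of 0.160, which did not pass, and a DESeq2 adjusted p of 0.000305, which did. The exact permutation test gave p = 0.1, the smallest that 3 against 3 mice allow. Leaving out Egr1-/- replicate 1, the lowest of its genotype, raised the difference to 1.72 (edgeR adjusted p = 0.0484), and leaving out Egr1-/- replicate 3, the highest, brought it to 1.18 (edgeR adjusted p = 0.649).

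Ucp1, set beside Pm20d1, was at 400.3, 316 and 305 CPM in Egr1+/+ mice, against 858, 571 and 949 CPM in Egr1-/- mice (log2 fold change 1.22, SE 0.21, edgeR adjusted p = 0.151). All 8 tested brown and beige adipocyte markers, Ucp1 among them, were higher, 7 of them without overlap, a pattern held by 8.15% of tested genes. The paper had named Ucp1, Cidea, Cox8b, Dio2 and Ppargc1a as upregulated in these same libraries. This count is therefore not an independent result. The markers of this list summed to 707, 570 and 555 CPM in Egr1+/+ mice, against 1363, 968 and 1614 CPM in Egr1-/- mice. Ucp1 alone made up the larger part of that sum in every mouse, so the sum largely follows Ucp1. Per 1000 CPM of that sum, Pm20d1 was at 3.05, 3.33 and 3.72 in Egr1+/+ mice and at 2.75, 5.70 and 4.93 in Egr1-/- mice. Here the genotypes overlapped (exact permutation p = 0.4, n = 3 each), with Egr1-/- replicate 1 below every Egr1+/+ mouse. Per 1000 CPM of the adipocyte sum, Pm20d1 did not overlap, at 0.247 to 0.317 in Egr1+/+ mice against 0.610 to 1.32 in Egr1-/- mice (exact permutation p = 0.1). The part of brown and beige adipocyte content in the higher level was not tested.

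The other genes of these pathways were taken from lists. Of 11 creatine cycle genes, 4 had a positive and 7 a negative log2 fold change, with a median of -0.16, and none passed in edgeR. The creatine cycle gene with the largest difference was Phospho1, a phosphatase known for acting on phosphocholine, at 0.437, 0.233 and 0.302 CPM in Egr1+/+ mice against 1.20, 1.03 and 1.26 CPM in Egr1-/- mice (log2 fold change 1.83, SE 0.38, edgeR adjusted p = 0.165). All Egr1-/- mice were higher, at a low level. The ATP/ADP carriers Slc25a4 and Slc25a5, through which creatine kinase draws on mitochondrial ATP, overlapped between genotypes (log2 fold change -0.09 and 0.26).

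Of 21 calcium cycling genes, 20 were tested, 11 with a positive and 9 with a negative log2 fold change and a median of 0.08. None passed in edgeR, and 4 of the 20 reached an unadjusted p under 0.05, a level reached by 10.7% of all tested genes. They were higher in Egr1-/- mice: Adra1a, Itpr2, Itpr1 and Atp2a2. Adra1a, the alpha-1A adrenergic receptor that releases calcium through IP3, was at 12.1, 11.6 and 9.65 CPM in Egr1+/+ mice against 27.5, 21.2 and 28.3 CPM in Egr1-/- mice. Its log2 fold change of 1.21 (SE 0.15) missed the threshold in edgeR (adjusted p = 0.0748) and passed in DESeq2 (adjusted p = 2.712e-08). Of the 20, 5 were higher and 1 was lower in all Egr1-/- mice, beside 8.15% and 8.1% of tested genes. The IP3 receptors Itpr1 and Itpr2 were higher by 0.28 (SE 0.12, edgeR adjusted p = 0.4492) and 0.40 (SE 0.14, 0.3525). Camk2d was higher by 0.14 (SE 0.11, 0.7028). Fkbp1b, which steadies the closed ryanodine receptor, was lower in all Egr1-/- mice, at 15 to 50 counts per mouse. Its log2 fold change was -0.63 (SE 0.35, edgeR adjusted p = 0.5778). Sln, a SERCA inhibitor of muscle, had at most 7 counts. The muscle genes Atp2a1, Ryr1 and Casq1 had SEs above 1 and overlapped. For N-acyl amino acids, Faah, which can break and make them, differed by 0.14 (SE 0.25).

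**Figure D4:**
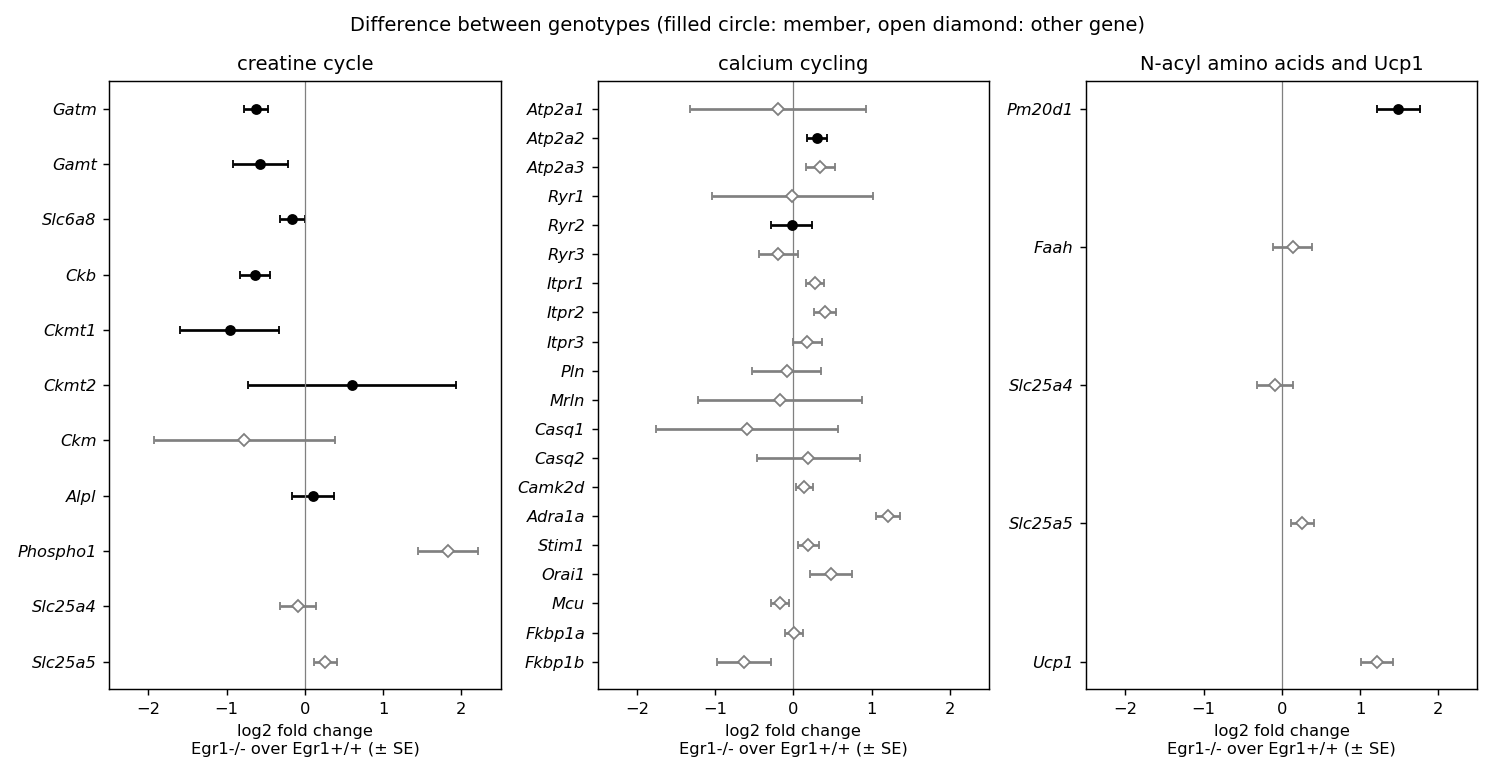
Log2 fold change of Egr1-/- over Egr1+/+ mice (horizontal axes, lines are SE) for the tested genes of the 3 pathway lists and for Ucp1, from 3 mice per genotype. Filled circles are the 10 genes and open diamonds other genes. Pm20d1, Phospho1, Adra1a and Ucp1 lie above 1, and the muscle genes carry the widest errors.

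Compared per kilobase of exon in Egr1+/+ mice, the levels ran from Atp2a2 at 18.5 ± 1.02 CPM per kilobase (SD, n = 3) through Gatm at 5.11 ± 0.223 and Ckb at 3.29 ± 0.333 to Ryr2 at 0.139 ± 0.0172. Ckb, Ckmt2, Gamt and Slc6a8, next in that order, overlapped from each gene to the next, as did Pm20d1, Ckmt1 and Ryr2 at the low end. Alpl lay between them at 0.451 ± 0.0988, apart from both neighbours. Over all 6 mice, Atp2a2 ranked above 95.0% of the 14364 protein-coding genes tested, Gatm above 68.4% and Ckb above 55.7%. Alpl ranked above 17.9%, Ckmt1 above 7.41% and Ryr2 above 5.42%. Of the 10 genes, the SERCA pump and the first enzyme of creatine synthesis were the most abundant per kilobase, and Pm20d1, which differed most, was at 0.290 CPM per kilobase in Egr1+/+ mice.

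**Figure D5:**
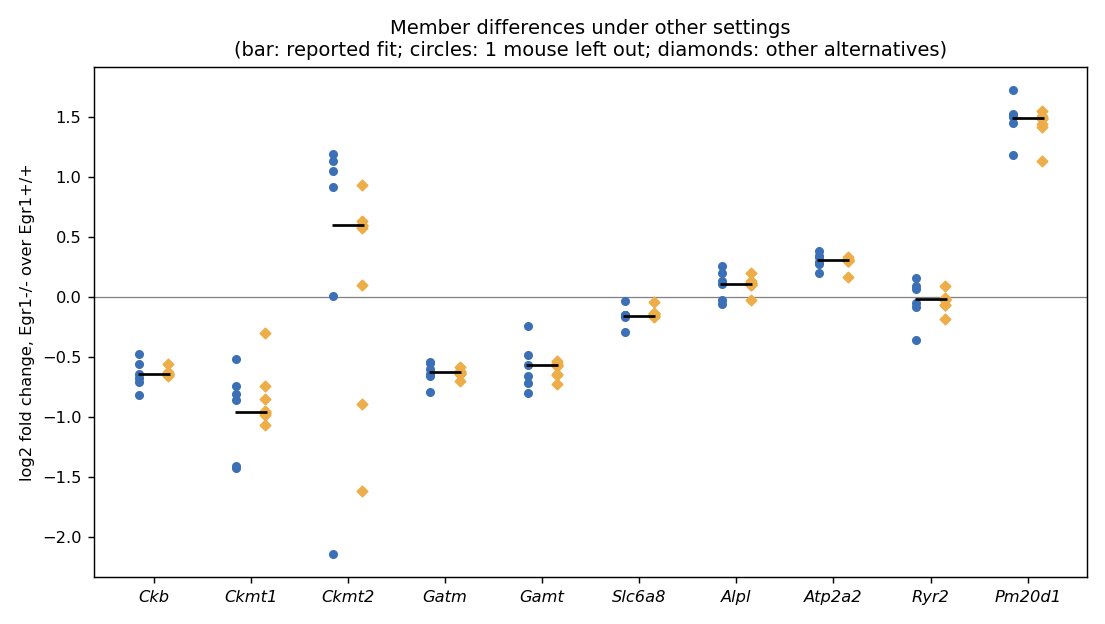
Log2 fold change of each of the 10 genes (vertical axis) in the reported fit (bar), with 1 mouse left out (circles) and under 9 other settings (diamonds). Gatm, Gamt, Ckb, Ckmt1 and Slc6a8 stay below 0 and Atp2a2 and Pm20d1 above 0 in each of them, and Ckmt2, Alpl and Ryr2 cross 0.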

How the data were processed

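SC-WAT RNA of 6 mice, 1 library each, was depleted of ribosomal RNA and prepared with a strand-specific kit. The authors mapped the reads to GRCm38 with TopHat2 and Bowtie2 and counted them per gene with featureCounts. They deposited raw counts, without normalization, for 47069 genes per mouse. The strand and multimapping settings of featureCounts are not given in the sources used here. How reads shared with antisense genes were counted is therefore not known. Identifiers were named through GENCODE M21 (46574 matched).

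Counts were tested in R 4.3.3 with edgeR 4.0.16 (TMM, filterByExpr, quasi-likelihood test, Benjamini-Hochberg adjustment over 17667 genes, threshold 0.05), without covariates and checked on simulated data. DESeq2 1.42.0, limma 3.58.1 (voom) and other settings were alternatives. SEs are log2 fold changes over the square root of F. Isoform shares used exact two-sided permutation tests. Correlations used log2 CPM with a prior count of 2. Precision rests on 3 mice per genotype. The edgeR, DESeq2 and limma p-values set a difference against the spread between mice. In these fits each gene's spread was drawn toward that of other genes.

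The 10 genes, the pathway lists (11 creatine cycle, 21 calcium cycling and 4 N-acyl amino acid genes) and the marker lists were chosen with earlier results of these data known. The text names all 10 genes, genes of those lists, some of the markers and Egr1. For each of the 10, it also names the 3 protein-coding genes of at least 1 CPM most correlated with it. Sums of the other marker lists are among the other observations. No sample was left out of the reported fits.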

Additional observations from a re-analysis of the deposited data

How the results depend on the processing

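Egr1-/- mice had 3 genes called higher and 0 lower in edgeR (at an unadjusted p under 0.05, 1884 in both directions). The genes called higher and lower were 243 and 309 with no filter on low counts, 130 and 242 in DESeq2, 4 and 2 with the skeletal muscle level as a covariate, 0 and 0 with upper-quartile factors, and 1 and 0 with limma-voom. With 1 mouse left out they ranged from 0 to 16 and from 0 to 43, the highest of each without Egr1-/- replicate 1. With both libraries highest in skeletal muscle genes left out, a setting chosen after seeing the data, 0 and 0 were called. Of the 10 genes, 0 were called in edgeR, 2 with no filter, 2 in DESeq2 and 0 to 1 with 1 mouse left out. With no filter, Pm20d1 differed by 1.51 (adjusted p = 1.335e-06) and Gatm by -0.62 (adjusted p = 0.0306), and in DESeq2 by 1.49 (adjusted p = 0.000305) and -0.63 (adjusted p = 0.0285). Pm20d1 ranged from 1.18 to 1.72 with 1 mouse left out, and its adjusted p from 1.335e-06 to 0.649 over all alternatives. With 1 mouse left out, Gamt ranged from -0.80 to -0.24, Atp2a2 from 0.20 to 0.38, Ckmt1 from -1.43 to -0.52 and Slc6a8 from -0.30 to -0.034. Adjusted p for Gatm ranged from 0.0285 to 0.720 and for Ckb from 0.0820 to 0.720.

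Ckmt2, Alpl and Ryr2 changed sign. With 1 mouse left out Ckmt2 ranged from -2.14 to 1.19, Alpl from -0.058 to 0.25 and Ryr2 from -0.36 to 0.16, and with both muscle-rich libraries left out they were at -1.62, -0.024 and 0.093. The share of Ckb among the kinases differed by 7.33 percentage points and that of Ckmt1 by 0.343 once Ckm was added to the sum, and that of Atp2a2 by -0.521 without Atp2a1. With 1 mouse left out these shares differed by -23.5 to 13.1 (Ckb), -2.81 to 0.567 (Ckmt1), -13.4 to 26.0 (Ckmt2) and -6.25 to 19.1 (Atp2a2). The cause of these changes was not tested.

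Same-numbered mice did not deviate together (correlations of -0.0888, 0.106 and -0.126 over 17667 genes). With 3 mice per genotype these values cannot tell whether a number marks littermates. The labels do not say which mice shared a litter. With the replicate block 0 genes were called higher and 0 lower, Ckmt2 was at -0.89, and none of the 10 genes passed. Ckmt1 had 6 to 28 counts per mouse.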

Other observations

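The genes whose log2 CPM over the 6 mice was most like that of each gene are given as a description over 12631 protein-coding genes (12632 for Ckmt1). The mice, libraries and genotypes are shared between the points. Gatm was most like Tubb4a (Pearson r = 0.999), Pcdhb17 and Antxr1. For Gamt they were Mtcl1 (0.996), Arpp19 and Nynrin, and for Slc6a8 Cys1 (0.998), Rps18 and Mafk. Ckmt1, at low counts, was most like Tmem175 (0.994), 2310022B05Rik and Arrdc3. Ckb was most like Cyp4v3 (0.992), Grb10 and Wwp1, and Ckmt2 most like 3425401B19Rik, Smtnl1 and Capn3, of which Capn3 encodes a muscle calpain. Atp2a2 was most like Tada2b (0.997), Hadha, an enzyme of mitochondrial fatty acid oxidation, and Ppara, a receptor that controls that pathway. Pm20d1 was most like Sbk1 (0.996), Polh and Mrap, and Alpl most like Mmadhc (0.989), Adap1 and the fast myosin gene Myh1. Ryr2 was most like Tulp3, Sema6a and Klf3.

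Sums of markers of other cell types are given as values for the 6 mice. Macrophage markers were at 182, 236 and 220.4 CPM in Egr1+/+ mice and at 167, 121 and 124 CPM in Egr1-/- mice. Of these genes, 4 of 4 were lower and 3 without overlap, as for 8.1% of tested genes. Neuron and Schwann cell markers were at 239, 143 and 161 CPM against 135, 104 and 134 CPM, with Th at 0 counts in every mouse. Endothelial markers were at 310.1 to 465 CPM, mammary epithelial markers at 3.11 to 14.1 CPM, slow muscle and heart markers at 1.48 to 72.1 CPM, and bone and cartilage markers at 0.255 to 1.05 CPM.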
